A study of Mus musculus with 30 samples.

Results

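Blood B cells that descended from converted adult endothelium were compared with native blood B cells in 6 of the 30 libraries of a mouse RNA sequencing series. The 3 native libraries (controls 1, 2 and 3) came from B220+ blood cells annotated as wild type, freshly isolated. The 3 endothelium-derived libraries carry the prefix rEC in their titles and the genotype "derived". They are called rEC 1 (titled with the marker alone), rEC 2 (titled with the clone name 47G1 and the word Primary) and rEC 3 (titled B220++ and Secondary). The labels define neither Primary nor Secondary. In the wider series rEC cells follow the conversion of adult endothelial cells with 4 transcription factors named FGRS (Fosb, Gfi1, Runx1, Spi1), whereas the controls carry no stated agent. Members were taken from the library titles, and the remaining 24 libraries are 23 of other cell types and 1 titled B220+ of clone 47G1. The last carries the genotype wild type, as the controls do, but the clone name of rEC 2, and it was put in neither group. The labels give no age or strain for a B cell group, do not say that libraries came from separate mice, and do not say whether an rEC animal kept blood cells of its own. Because rEC 1, 2 and 3 have unlike titles, they need not be replicates of 1 preparation.

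B cells are the lymphocytes that make antibody. Pax5 and Ebf1 are the transcription factors that hold their identity, and Cd79a and Cd79b carry the signal of the B cell receptor, the antibody molecule anchored in the membrane. Cd22 and Cr2 tune that signal, and class II molecules of the major histocompatibility complex show peptides to CD4 T cells. B220, used to sort these cells, is the long form of the phosphatase CD45 encoded by Ptprc, which all white blood cells make, so a gene-level value of Ptprc cannot tell B220 from other forms. No immunoglobulin heavy or light chain gene was analysed here.

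Values are FPKM, fragment numbers scaled by transcript length and by the mapped fragments of each library. Differences are rEC minus control on the scale log2(FPKM + 1), on which changes of low genes are understated. Relative depth, read from the value of a single fragment among genes under 0.5 FPKM, ranged from 0.908 to 1 over the 6 libraries with control 2 as the reference. Between 10433 and 10947 genes reached 1 FPKM in each. Summed FPKM over all genes was 658273 in control 1 and 693147 in rEC 1, against 525551 to 526789 in the others. The FPKM printed below are not rescaled for this, and its part in the levels of control 1 and rEC 1 was not tested. Pearson's r over the 14083 genes tested was 0.985 to 0.994 between controls. It was 0.983 to 0.993 between a control and rEC 2 or rEC 3, and 0.992 between rEC 2 and rEC 3. Library rEC 1 stood apart, at 0.928 to 0.936 with the controls and 0.927 and 0.928 with rEC 2 and rEC 3. Every comparison is therefore given with and without it.

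Library rEC 1 was labelled B cells and held T cell transcripts at close to the level of sorted T cells. Cd3e, a chain of the T cell receptor complex (chr9:44998740-45009627, mm10), stood at 198 FPKM in rEC 1, against 0.393, 0.293 and 0.281 in the 3 controls and 0.106 and 0.0675 in rEC 2 and rEC 3. The same gene averaged 250.0 FPKM over the 4 CD4 T cell libraries of the series and 246 over its 6 CD8 T cell libraries. Cd8a was at 184 FPKM in rEC 1 and between 0.496 and 0.603 in the other B cell libraries, and Cd8b1 was at 354 FPKM. Cd4, the coreceptor of helper T cells, was lower, at 52.8 FPKM or 16.7% of the CD4 T cell mean, and Cd8a was at 47.1% of the CD8 T cell mean. The 4 CD3 chains, Cd3d, Cd3e, Cd3g and Cd247, lay between 77.1% and 86.5% of their CD8 means and between 49.4% and 89.4% of their CD4 means. Genes of cytotoxic lymphocytes were as prominent: the chemokine Ccl5 stood at 2749.8 FPKM in rEC 1 against 13.8, 9.33 and 15.4 in the controls, the granule protein Nkg7 at 419, and the protease Gzma at 187. The natural killer gene Ncr1 was at 6.16 FPKM. Summed over the 20 T cell markers, rEC 1 reached 3779 FPKM, the controls 379, 323 and 293, and rEC 2 and rEC 3 316 and 296, most of which in those 5 libraries was Cd2 (350.0, 297 and 270.1 in the controls), a gene that B cells also express.

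**Figure D1:**
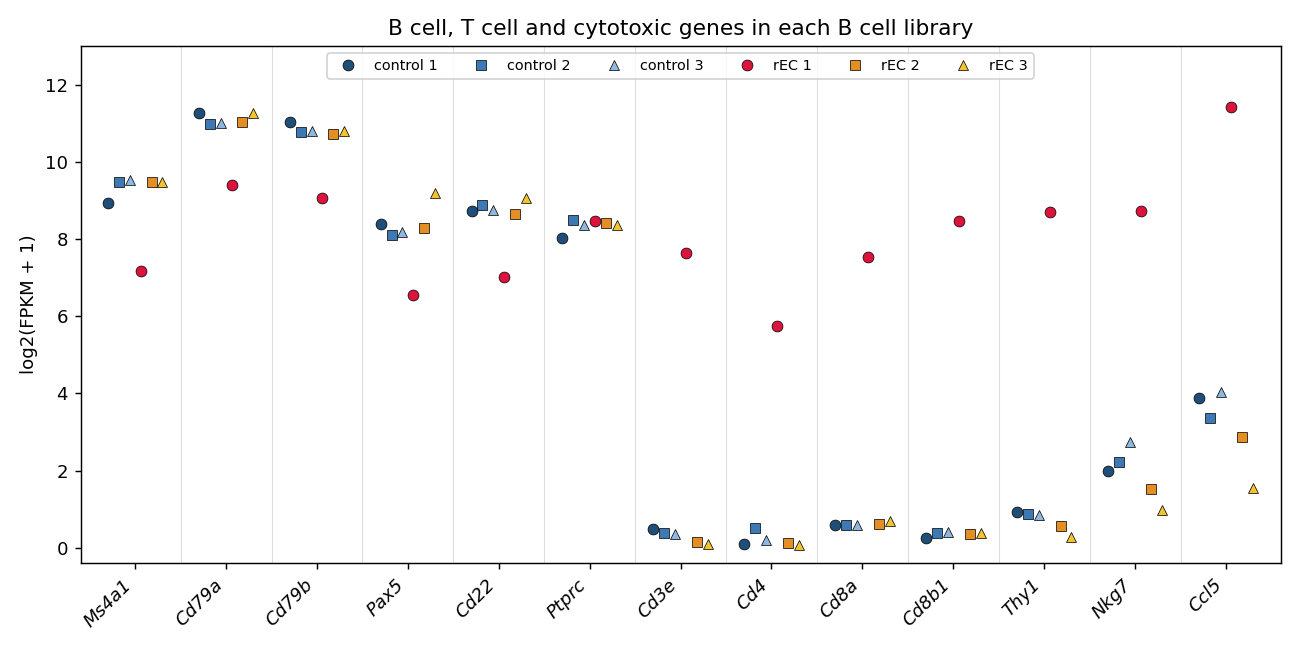
Level of 13 marker genes in each B cell library, as log2(FPKM + 1), with controls in blue and rEC libraries in red to yellow. In rEC 1 (red circles) the 5 B cell genes lie below the other libraries and the T cell and cytotoxic genes lie far above them, while Ptprc overlaps in all 6.

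The B cell identity genes were present in all 6 libraries, lower in rEC 1 and near the control level in rEC 2 and rEC 3. Cd79a (chr7:24897381-24902197) measured 2455, 2007 and 2055 FPKM in the controls against 669, 2101 and 2437 in the rEC libraries, and its partner Cd79b 2075, 1738 and 1774 against 533, 1699 and 1767. For Ms4a1, the membrane protein CD20, the controls were at 488, 704 and 738 FPKM and the rEC libraries at 143, 713 and 711. Pax5 (chr4:44524757-44710487) was at 334, 274 and 287 FPKM in the controls and 93.1, 310.3 and 578 FPKM in the rEC libraries, so that rEC 3 lay above every control and rEC 1 below. Ebf1 was at 40.4, 72.1 and 66.1 FPKM against 9.46, 66.7 and 53.9. Over the 24 of 25 listed identity genes that were tested, rEC 1 held 15.9% to 43.1% of the control mean, with a median of 27.8%, and it was the lowest of the 6 libraries for all 24. Ptprc itself did not follow them, at 258, 361 and 328 FPKM in the controls and 349.7, 341 and 326 in the rEC libraries.

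None of these genes passed limma's test at an adjusted p of 0.05 in either comparison, where 0% of all genes tested passed. With all 3 rEC libraries the median difference of the identity list was -0.53, beside 0.026 over all genes tested, and Cd79a differed by -0.52 (95% interval -2.08 to 1.04). Without rEC 1 the list's median was 0.098, beside 0.019 over all genes, and Cd79a differed by 0.065 (-1.61 to 1.74). The interval of Cd79a thus reached beyond 1 log2 unit both ways, in a model whose spread is pooled over all cell types. The widest single excess in rEC 2 and rEC 3 was that of Cd180, a Toll-like receptor relative of B cells, at 97.8 and 92.6 FPKM against 40.2, 72.5 and 71.1 (difference 0.68 ± 0.41, SE). Fcer2a, the low-affinity IgE receptor CD23, was at 559 and 709.5 FPKM against 445, 524 and 478. In all, 5 of the 24 lay above every control in both libraries and 0 lay below. Among all genes tested, 10.7% were above and 6.13% below in this way. Of the remaining identity genes, Cd22, Cr2, Cd72, Cd37, Spib, Bank1, Ly86, Fcrla, Blk, Ralgps2, Tnfrsf13c, Cxcr5 and Vpreb3 did not have both libraries beyond the controls on 1 side, and Pou2af1, Fcmr and Cd24a completed the 5 that lay above.

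The kinases and adaptors that carry the receptor signal showed the same division between libraries. Syk, the first kinase of the pathway, was at 392, 392 and 425 FPKM in the controls and 92.3, 355 and 349 in the rEC libraries, all of which lay below. Blnk, the adaptor that Syk acts on, was at 217, 176 and 184 against 55, 166 and 186 FPKM, and the phosphatase Ptpn6 at 419, 465 and 488 against 162, 432 and 570.4. The median over the 20 signalling genes was -0.46 with rEC 1 and 0.076 without it. Syk and Dapp1 were the 2 of 20 with all rEC libraries below all controls, a pattern seen in 1.98% of all genes tested. Library rEC 1 was the lowest of the 6 for 17 of the 20. Without rEC 1, 3 of the 20 lay below every control and 4 above, beside 6.13% and 10.7% of all genes tested.

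Class II genes were abundant in every B cell library. Cd74, the invariant chain, measured 13305, 10597 and 10302 FPKM in the controls and 3849, 10899 and 12092 in the rEC libraries, and H2-Aa 5118, 4103 and 3494 against 1432, 4076 and 3642. H2-Ab1 was at 3664, 3039 and 2709 against 1037, 2898 and 2717 FPKM and H2-Eb1 at 2511, 2029 and 1742 against 679, 1856 and 1789.7. Control 1 was the highest library for 11 of the 16 genes of the list and rEC 1 the lowest for 15. Summed FPKM over all genes was also higher in control 1 (658273) than in control 2 (526342) and control 3 (525551). The list's median difference was -0.57 with rEC 1 and -0.11 without. Class I genes ran the other way in rEC 1: their summed level was 10706 FPKM there, 8221, 6937 and 6523 in the controls, and 6556 and 7499.5 in rEC 2 and rEC 3. The sum over all genes was also highest in rEC 1, at 693147 FPKM, and its part in this excess was not tested. B2m, the shared light chain of class I, was at 2467, 2119 and 2007 FPKM against 3381, 2055 and 2082. H2-K1 was at 2009, 1646 and 1511 against 2944, 1472 and 1818, H2-D1 at 1484, 1257 and 1251 against 1655, 1269 and 1466, and H2-Q4 at 557, 449.7 and 398 against 785, 395 and 539.6. All 14 class I genes were tested, with a median of 0.13 with rEC 1 and -0.015 without.

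**Figure D2:**
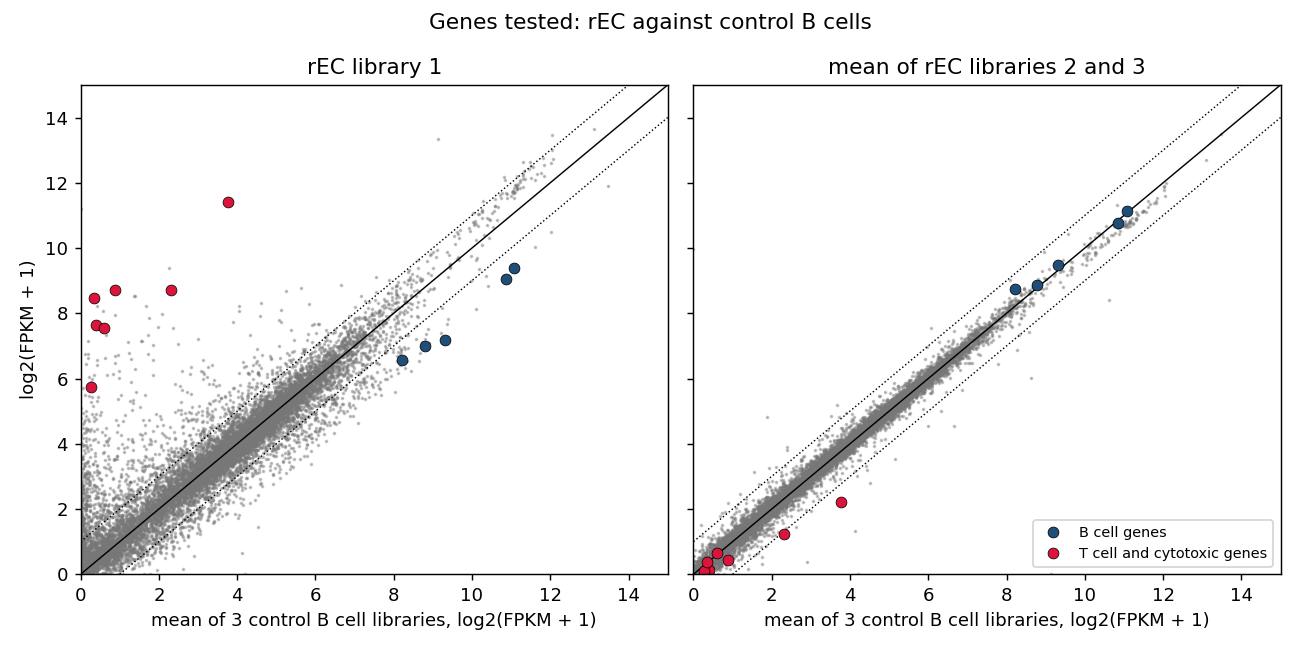
Each of the 14083 genes tested as a point, with the mean of the 3 control libraries on the x axis and rEC 1 (left) or the mean of rEC 2 and rEC 3 (right) on the y axis, both in log2(FPKM + 1). Dotted lines mark a difference of 1, which 11.5% of genes exceed in rEC 1 and 0.341% in the mean of rEC 2 and rEC 3. The genes include some that are low in B cells, whose differences this scale understates.

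Across all genes, rEC 1 differed from the control mean by more than 1 log2 unit upwards for 1067 genes and downwards for 557. The same counts were 48 and 37 for rEC 2 and 25 and 50 for rEC 3. As a measure of the spread among controls, control 1 differed from the mean of the other controls by that much for 95 and 80 genes, control 2 for 20 and 24, and control 3 for 28 and 29. As shares of the genes tested, rEC 2 and rEC 3 gave 0.604% and 0.533%, inside the 0.312% to 1.24% of the controls. These distances differ in construction, since a control was set against 2 libraries and an rEC library against 3.

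In limma with all 29 grouped libraries in 1 model, 0 of 14083 genes passed at an adjusted p of 0.05 with all 3 rEC libraries, and 398 (2.83%) had an unadjusted p under 0.05. Without rEC 1, 0 genes passed and 199 (1.41%) had an unadjusted p under 0.05. Other settings of the same tool gave 0 to 151 genes with all 3 rEC libraries and 0 to 135 without rEC 1, the high counts arising where libraries were weighted. Without rEC 1, the 95% interval lay within 1 log2 unit of 0 on both sides for 11543 genes, 82.0% of those tested, and the estimated difference exceeded 1 for 48 genes. For the other 18.0% of genes the interval reached a difference of that size. In the controls, rEC 2 and rEC 3, 10433 to 10461 genes reached 1 FPKM. The shares of the 14083 genes tested thus include genes low in B cells, whose differences the scale understates. All rEC libraries lay above all controls for 698 genes (4.96%) and below for 279 (1.98%), together 6.94%. Without rEC 1 the groups did not overlap for 16.8% of genes.

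The 3 named genes with the smallest p across all libraries were Trim25, Sema5a and Xlr4a. Trim25 (chr11:88999376-89020293), a ubiquitin ligase of the antiviral RIG-I pathway, was at 98.7, 84.9 and 77.7 FPKM in the controls and 32.1, 42.9 and 52.1 FPKM in rEC 1, 2 and 3. Every rEC library lay below every control, at a mean of 42.4 ± 9.97 FPKM (SD, n = 3) against 87.1 ± 10.7 FPKM (SD, n = 3). The difference was -1.04 ± 0.17 (SE), with a limma adjusted p of 0.0733, and without rEC 1 it was -0.86 ± 0.18 with an adjusted p of 0.577. It thus missed the threshold in both. Over the 14 other settings with all rEC libraries its limma adjusted p ran from 0.0002 to 1 and passed in 6. The lowest came from the fit with array weights, and 2 of the 6 settings were chosen after the data were seen. Over the 13 other settings without rEC 1 Trim25 passed in 2, the weighted fit and the blood libraries alone. Sema5a (chr15:32244810-32696341), a semaphorin guidance protein, was at 1.43, 2.3 and 2.28 FPKM against 0.205, 1.08 and 0.737, lowest in rEC 1 (difference -0.87 ± 0.16, limma adjusted p 0.141; without rEC 1 -0.65 ± 0.15, limma adjusted p 0.968). Xlr4a, an X-linked lymphocyte-regulated gene (chrX:73074345-73082478), was at 4.05, 3.14 and 2.84 FPKM against 22.9, 6.77 and 11, higher in all 3 rEC libraries and most in rEC 1 (difference 1.60 ± 0.32, limma adjusted p 0.218; without rEC 1 1.16 ± 0.29, limma adjusted p 1). Xlr4a has near-identical neighbours among which reads can be shared, so its level is uncertain.

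Without rEC 1 the smallest p-values belonged to Chst10, Trim25 and Tub. Chst10 (chr1:38863867-38898161), a sulfotransferase that makes the HNK-1 glycan, was at 22.6, 14 and 16 FPKM in the controls and 10.2, 6.41 and 7.7 FPKM in the rEC libraries. The groups did not overlap, with or without rEC 1, and the difference without it was -1.18 ± 0.22 (limma adjusted p 0.403). Tub (chr7:108950338-109034460) was low throughout, at 1.52, 1.29 and 0.895 FPKM against 1.88, 3.24 and 2.47 (difference 0.79 ± 0.17, limma adjusted p 0.615).

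**Figure D3:**
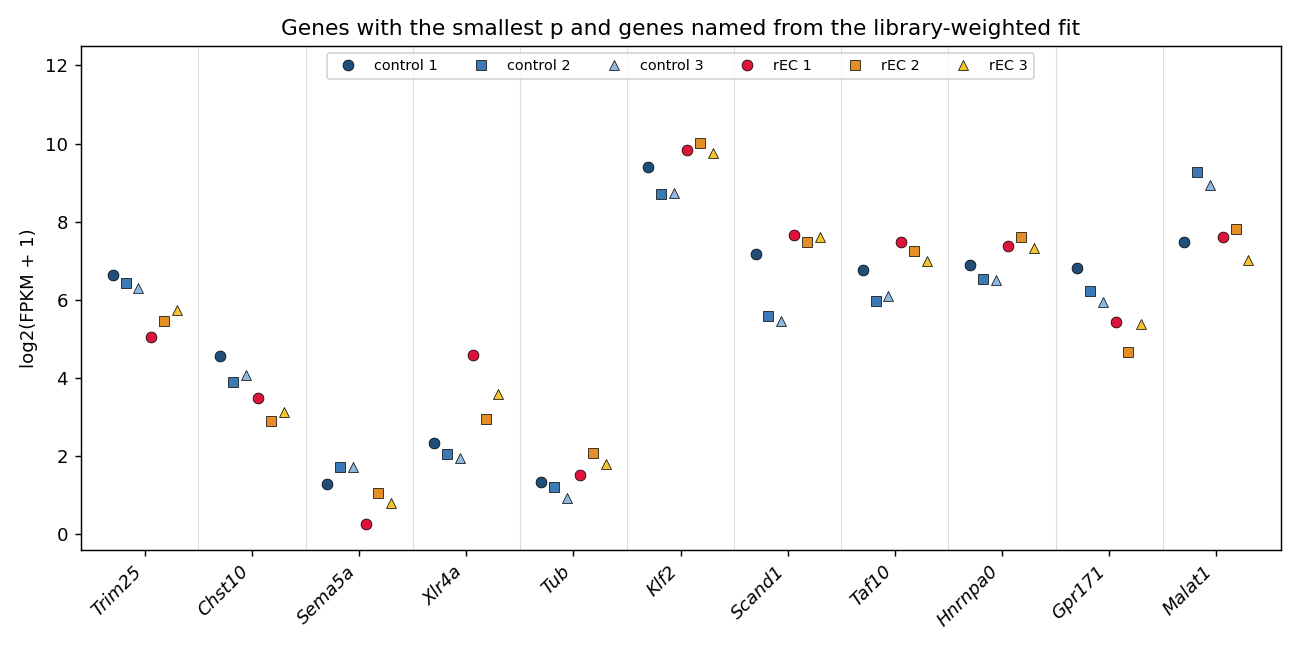
Level of 11 genes in each B cell library, as log2(FPKM + 1). The first 5 have the smallest p with or without rEC 1, and all of them separate the controls (blue) from the rEC libraries (red to yellow) without reaching an adjusted p of 0.05 in the unweighted model over all groups. For Malat1 control 1 lies among the rEC libraries.

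When limma's array weights let each library count by how closely it followed its group, 151 genes (1.07%) passed with all rEC libraries, 123 higher and 28 lower. Without rEC 1, 135 genes (0.959%) passed, 105 higher and 30 lower, and 121 genes passed in both. The weights were 4.03 for control 2 and 2.69 for control 3, but 0.358 for control 1, and 0.129, 1.08 and 1.68 for rEC 1, 2 and 3, so the control mean rested mostly on controls 2 and 3. The weight estimation stopped before it converged. The 5 genes with the smallest p above passed in both weighted fits, the limma adjusted p without rEC 1 being 2.51e-04 for Trim25, 5.76e-05 for Sema5a, 0.00317 for Xlr4a, 0.00175 for Chst10 and 0.00192 for Tub. The following genes were picked from this fit after their values were seen. Klf2, a transcription factor that keeps lymphocytes quiescent and recirculating, was at 677, 418 and 428 FPKM in the controls and 910.5, 1025 and 869 in the rEC libraries, with no overlap. Its difference without rEC 1 was 1.13 in the weighted fit (limma adjusted p 0.00257) and 0.93 ± 0.79 without weights (limma adjusted p 1). Scand1 was at 143, 46.7 and 42.6 FPKM against 201, 177 and 196, with control 1 nearer to the rEC libraries than to the other controls. Taf10, a subunit of the general transcription factor TFIID, was at 107, 61.6 and 67.7 against 178, 150.2 and 126 FPKM, and Hnrnpa0, an RNA-binding protein, at 118, 92 and 90.2 against 166, 195 and 159. Gpr171, a G protein-coupled receptor, was lower, at 112, 73.4 and 61 against 42.4, 24.2 and 40.6 FPKM. The nuclear RNA Malat1 was at 178, 621 and 492 FPKM in the controls and 193, 224 and 129 in the rEC libraries, so control 1 overlapped the rEC range. The ribosomal precursor Rn45s, a measure of residual ribosomal RNA in a library, was at 2196, 1468 and 1232 FPKM in the controls and 1861, 419 and 276 in the rEC libraries. Its part in these calls was not tested.

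A short gene model, Gm38670, had the largest estimated difference of all genes tested and was the 1 gene that passed when the B cell libraries were fitted alone. It is the hairpin of microRNA 9769, of 77 bases on chr7:30552828-30552904 (plus strand), and all 77 bases lie in exons of Hspb6. Its mature arms are shown because this is the value that the fit on B cells alone turned on. They are RefSeq sequences on GRCm38.p6, 5′ to 3′, with the seed (bases 2 to 8) in capitals.
mmu-miR-9769-5p: aGGCACAGaauuaggcccgacc
mmu-miR-9769-3p: uAGGGUCUguucuguguccucc
The 5p arm lies at chr7:30552839-30552860 and the 3p arm at chr7:30552871-30552892, and the seeds differ. Gm38670 was listed at 0 in the 3 controls and at 2366, 1019 and 1000.5 FPKM in rEC 1, 2 and 3. The fit on B cells alone gave a limma adjusted p of 0.0017 with rEC 1 and 5.46e-06 without it, against 0.887 and 1 in the model over all groups. Over the 30 libraries it was listed at 0 in 23 and between 912 and 10501 FPKM in 7, including 1 control library of CD4 T cells at 10501 FPKM, so a library showed either none or a large value. Hspb6, the small heat shock protein gene that contains it, was at 2.16, 3.33 and 3.43 FPKM in the controls and 3.8, 3.41 and 4.01 in the rEC libraries. Poly-A libraries do not sample mature microRNAs, so these values do not measure either arm.

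Genes of B cell subsets were read in the same fits, and no list was tested as a set. Among 12 tested genes of immature and transitional B cells the median was -0.058 with rEC 1 and -0.00083 without it, and Vpreb2, Igll1 and Mme were listed at 0 in all 6. Rag1, a recombinase of antigen receptor genes, was at 0.374, 1.72 and 1.17 against 0.0724, 0.321 and 0.521 FPKM and overlapped between the groups. It was the 1 gene of the 12 that passed in the weighted fits (limma adjusted p 0.0114 with rEC 1 and 0.0167 without it). Of all genes tested, 1.07% and 0.959% passed in those fits. Without weights and without rEC 1 the difference of Rag1 was -0.50 ± 0.34. Cd38 was at 73.9, 76.1 and 75.4 FPKM in the controls and 76.9 and 83.8 in rEC 2 and rEC 3. Bach2, a repressor of plasma cell fate, was at 35, 61.3 and 55.4 against 47.7 and 44.7 FPKM. Il7r and Spn, which T cells share, were at 266 and 146 FPKM in rEC 1 and at most 0.723 and 10.3 FPKM in the other libraries. For the 14 genes of B-1 and marginal zone B cells the medians were -0.11 and -0.13. Notch2, the receptor that marginal zone cells need, was at 47.5, 74.3 and 71.6 against 21.6, 71.9 and 59.8 FPKM, and its target Dtx1 at 49.1, 42.3 and 44.2 against 28.1, 41.6 and 39.4. Ahnak was at 37.3, 43.5 and 41.5 against 89.3, 60.3 and 37.2 FPKM and Cd1d1 at 26.6, 21.7 and 23.9 against 26, 21 and 30.0.

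Of 15 tested genes of antibody-secreting and germinal-centre B cells, 4 lay below all controls in every rEC library and 1 lay above, beside 1.98% and 4.96% of all genes tested. Jchain, Sdc1 and Fkbp11 were among the 4 and are named after their values were seen. Library rEC 1 was the lowest of the 6 for 10 of the 15. Without rEC 1, 5 of the 15 lay below every control and 2 above, beside 6.13% and 10.7% of all genes tested. Fkbp11, a folding enzyme of secretory cells, was at 13, 8.03 and 8.21 FPKM in the controls and 2.09, 5.58 and 4.22 in the rEC libraries (difference without rEC 1 -0.84 ± 0.39). Sdc1, the plasma cell surface protein CD138, was at 5.86, 7 and 6.38 against 0.478, 5.03 and 3.93 FPKM. Jchain, which joins antibody units, was at 3.24, 2.44 and 5.03 against 0.426, 1.23 and 1.64 FPKM. The most abundant genes of the list did not divide in this way: Mzb1 was at 205, 168 and 158 against 63.6, 191 and 158 FPKM, Irf4 at 37.5, 51.9 and 53.2 against 15.8, 55.3 and 58.8, Bcl6 at 25, 38.4 and 49.4 against 10.8, 48 and 61.1 and Sec61b at 151, 101 and 98.2 against 207, 107 and 91.7. The list's median was -0.22 with rEC 1 and -0.021 without it, and 0 of its genes passed in limma, with 1 at an unadjusted p under 0.05 without rEC 1 and 0 passing in the weighted fits.

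Among 20 genes of survival, homing and egress the medians were 0.043 and 0.072. Mcl1, a survival factor, was at 306, 312 and 345 FPKM in the controls and 260.0, 394 and 454 in the rEC libraries. Ccr7, the chemokine receptor for entry into lymph nodes, was at 447, 335 and 279 against 481, 237 and 259.7 FPKM. It was lower than every control in rEC 2 and rEC 3 and higher in rEC 1, and the CD4 and CD8 T cell libraries averaged 584 and 410.3 FPKM.

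Immediate early genes, the fast response to stimulation or handling, were highest in 1 library of each origin. Fos was at 209.5, 21.8 and 22.5 FPKM in the controls and 10.5, 135 and 20.1 in the rEC libraries, highest in control 1 and next in rEC 2. For 12 of the 25 genes of the list those same libraries were the top pair. Junb was at 349, 103 and 91.2 against 109, 372 and 114 FPKM, Jund at 507, 203 and 196 against 233, 702 and 383, Zfp36 at 326, 266 and 259.8 against 124, 376 and 247 and the NF-kB inhibitor Nfkbia at 206, 174 and 157 against 152, 162 and 165. The list's medians were -0.037 and 0.049. In the weighted fit without rEC 1, 2 of the 25, Jund and Ier5, passed (limma adjusted p 0.0177 and 0.047), beside 0.959% of all genes tested. Jund also passed with rEC 1, beside 1.07% of all genes. Control 1, the highest library for 11 of the 25, had a weight of only 0.358 with all libraries. Heat shock chaperones followed another library: control 3 was the highest of the 6 for 9 of 12 genes. Hspa8 was at 783, 562 and 1149.9 FPKM against 839, 500.4 and 685, Hsp90aa1 at 104, 111 and 196 against 98.5, 97.9 and 99.8, Hsp90ab1 at 428, 425 and 636 against 430.2, 416 and 439 and Hspe1 at 147, 98.7 and 122 against 173, 84.4 and 93.7. The list's medians were -0.24 and -0.42, and -0.00065 and -0.14 when control 3 was left out.

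**Figure D4:**
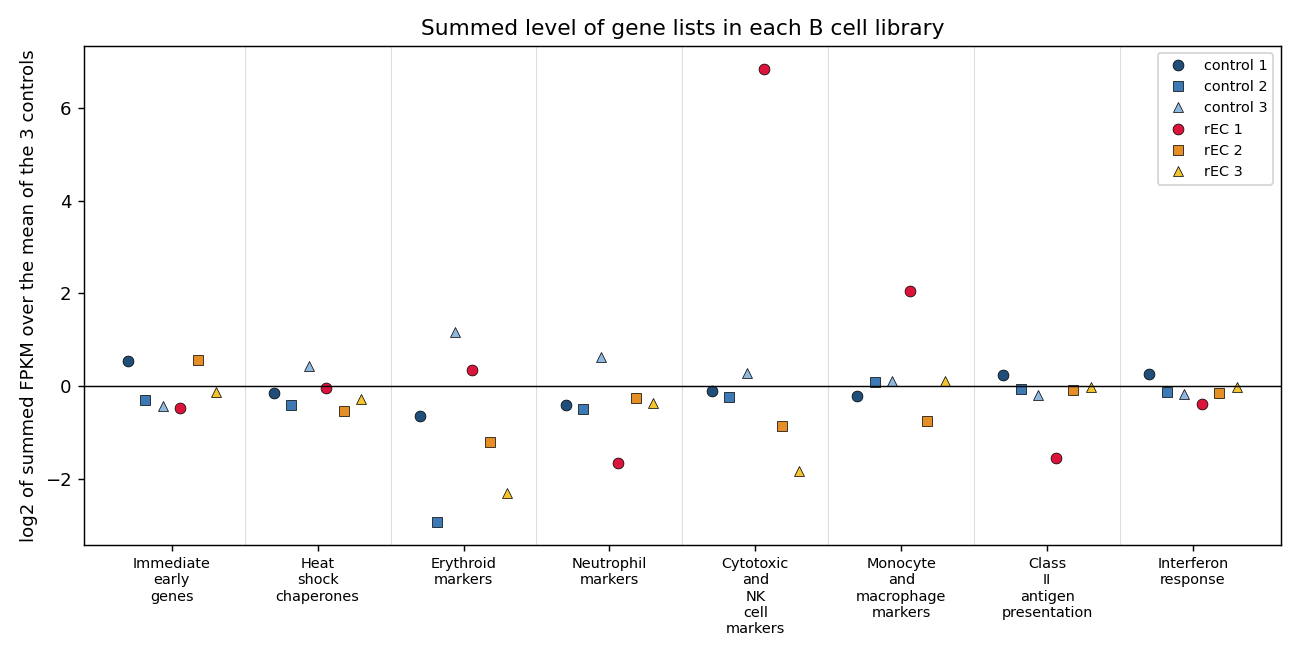
Summed FPKM of 8 gene lists in each B cell library, as log2 of the ratio to the mean of the 3 controls. Immediate early genes are highest in control 1 and rEC 2, heat shock chaperones and neutrophil markers in control 3, and cytotoxic markers in rEC 1.

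Interferon response genes numbered 30, all tested, with medians of -0.0092 and -0.11. Ly6e was at 1363, 1073 and 1044 FPKM in the controls and 653, 1095 and 1235 in the rEC libraries, Ly6a at 309.7, 176 and 149.9 against 159, 166 and 127 and Ifi27l2a at 293, 146 and 153 against 129, 177 and 166. Of this list 5 genes were below all controls in rEC 2 and rEC 3 and 1 was above, beside 6.13% and 10.7% of all genes tested. Among the 5 was Isg15, a ubiquitin-like protein, at 9.07, 7.14 and 7.45 FPKM in the controls and 8.67, 4.35 and 4.15 in the rEC libraries, chosen here after its values were seen.

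Resting, metabolic and stress programmes showed no gene past the threshold. Cell cycle genes were low, with medians of 0.037 and -0.0023 over 28 genes, and Pcna, the DNA polymerase clamp, was at 106, 102 and 98.1 against 138, 91 and 92 FPKM. Mcm7, a subunit of the replication helicase, was at 34.5, 29.1 and 34.6 against 36.7, 26.9 and 35.7 FPKM. Its partner Mcm6 was at 20.7, 21.4 and 21.2 against 33.2, 22.6 and 17.6, highest in rEC 1, and Mcm4 was at 14.8, 20.5 and 18.7 against 20.1, 19.1 and 16.2. For the 17 genes of the unfolded protein and amino acid stress response the medians were -0.16 and -0.057. Library rEC 1 was the lowest of the 6 for 9 of the 17, among them 3 abundant chaperones of the endoplasmic reticulum. Calr was at 228, 252 and 222 against 129.5, 246 and 272 FPKM, Hsp90b1 at 164, 187 and 191 against 105, 160.0 and 189 and Hspa5 at 139, 153 and 146 against 78, 131 and 134. The stress transcription factor Atf4 was at 230.4, 152 and 153 against 148, 176 and 160.4 FPKM.

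Cholesterol genes gave medians of 0.14 and 0.072 over 18 genes, with Srebf2, the transcription factor that drives them, at 83.3, 103 and 99.1 against 58.4, 109 and 95.6 FPKM. Fdps was at 18.8, 15.2 and 16 against 25.3, 16 and 18.3 and Insig1 at 14.2, 16.8 and 12.2 against 14.5, 16.1 and 13.8. Glycolysis and hypoxia genes gave 0.15 and 0.034 over 21 genes. The glycolytic enzyme Aldoa was at 243, 203 and 214 against 218, 222 and 229 FPKM. Pkm was at 130.1, 131 and 127 against 165, 136 and 134, Gapdh at 166, 104 and 128 against 154, 124 and 126 and lactate dehydrogenase Ldha at 121, 95.9 and 101 against 217, 98.2 and 97.6, the last highest in rEC 1. NF-kB and CD40 activation genes gave -0.18 and 0.15 over 14 genes, and Birc3 was at 147, 166 and 121 against 58, 141 and 122 FPKM. Nfkb2 was at 129.9, 125 and 131 against 56.2, 136 and 162 and Nfkb1 at 71.9, 93 and 87.2 against 54.4, 92.9 and 91.8. Birc3, Nfkb2 and Nfkb1 were all lowest in rEC 1. Of the 14 genes of the list, 10 were lowest in rEC 1 and 3 were highest there.

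**Figure D5:**
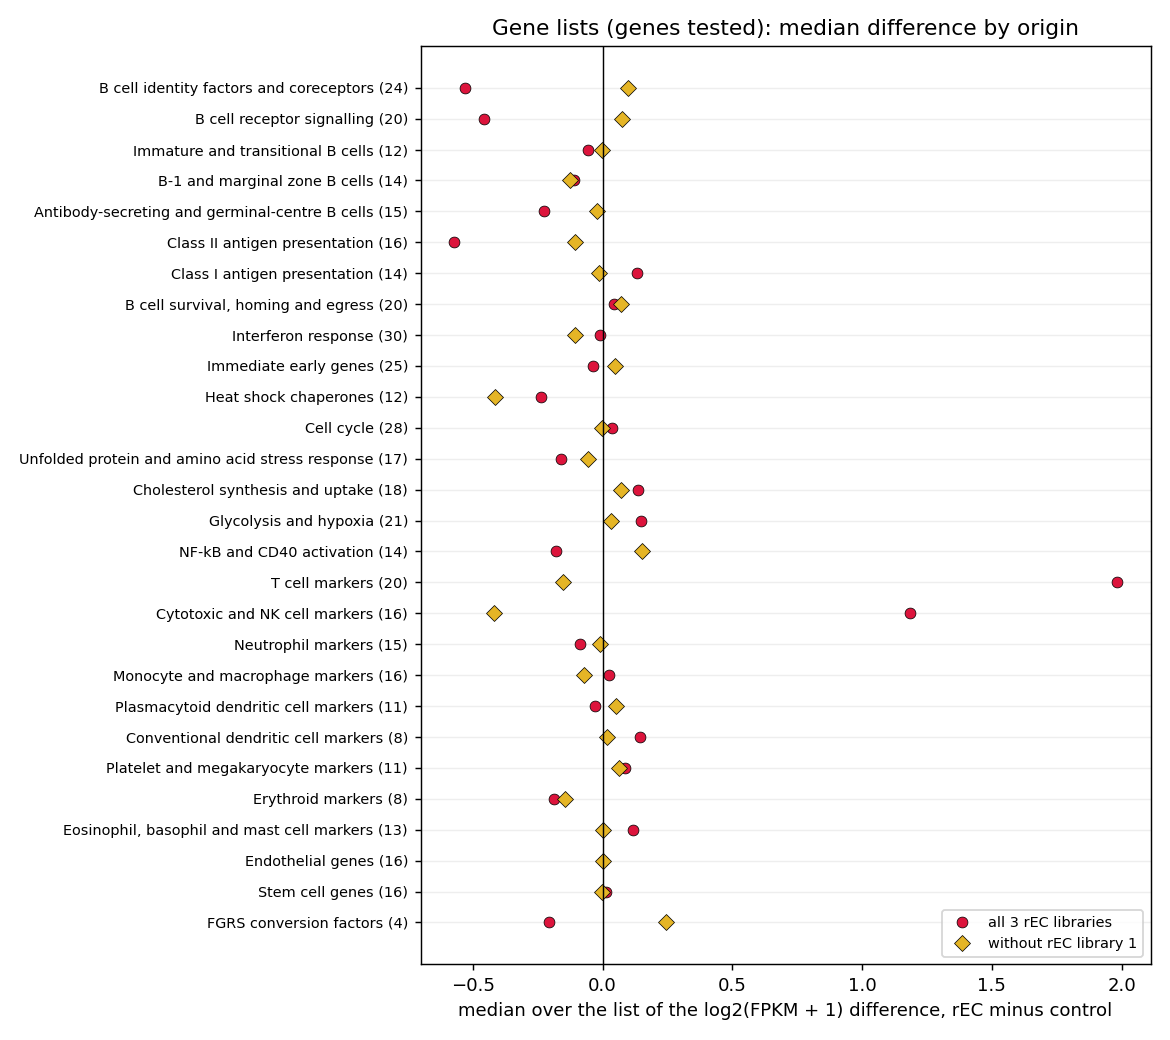
Median difference, rEC minus control in log2(FPKM + 1), of each of 28 gene lists with all 3 rEC libraries (circles) and without rEC 1 (diamonds), with the number of genes tested in brackets. With rEC 1 left out every list lies between -0.42 and 0.24, while the T cell markers move from 1.98 to -0.15.

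Markers of other cells that a B220 gate could hold were read in the same libraries. Without rEC 1, cytotoxic and natural killer markers were lower in the rEC libraries: their summed level was 31.3, 28.6 and 41 FPKM in the controls and 18.5 and 9.36 FPKM in rEC 2 and rEC 3. Of the 16 genes 9 were below all controls in both and 0 were above, beside 6.13% and 10.7% of all genes. Klrd1, a receptor subunit of natural killer cells, was at 3.65, 3.12 and 2.99 FPKM in the controls and 1.51 and 1.07 in rEC 2 and rEC 3, and Nkg7 at 2.96, 3.66 and 5.64 against 1.86 and 0.956. Gzma was at 3.39, 3.78 and 5.55 FPKM against 3.17 and 0.741, and Ccl5 at 13.8, 9.33 and 15.4 against 6.32 and 1.91. The list's median was -0.42 and none of the 16 passed limma without weights. In the weighted fit without rEC 1, 1 of the 16, Nkg7, passed (limma adjusted p 0.0408), beside 0.959% of all genes tested. Among 20 T cell markers 8 were below and 1 above, the 8 at no more than 2.06 FPKM: Thy1 was at 0.891, 0.837 and 0.792 FPKM against 0.481 and 0.217, and Tcf7 at 1.1, 2.06 and 1.58 against 0.894 and 0.858. Lat, which was not among them, was at 1.71, 1.56 and 1.59 against 1.31 and 2.02. In bulk libraries fewer cells of a type and less RNA per cell cannot be told apart.

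The other lists of possible contaminants differed in size between libraries. Neutrophil markers summed to 21.3, 20.0 and 43.9 FPKM in the controls and 8.93, 23.6 and 21.9 in the rEC libraries, with S100a8 at 4.6, 0.445 and 10.5 against 0.909, 4.23 and 2.42, S100a9 at 2.49, 0 and 7.28 against 0, 3.99 and 1.3, Cxcr2 at 4.39, 4.54 and 3.83 against 4.35, 4.52 and 4.44 and Wfdc21 at 8.19, 13.5 and 16.4 against 2.56, 7.73 and 12.6. Monocyte and macrophage markers summed to 89.3, 111 and 111 and 432, 61.5 and 112 FPKM, and in rEC 1 most of this was Ly6c2 at 296 FPKM, a gene at 525 FPKM on average in the CD8 T cells of the series, 20.2 in its CD4 T cells and 279 to 312 in its 4 myeloid libraries. Ms4a6c was at 76.2, 96.6 and 89.5 against 80.0, 46.4 and 97.2, Cd68 at 4.82, 7.49 and 6.61 against 4.58, 5.79 and 8.62 and the lysozyme Lyz2 at 2.27, 0.284 and 4.6 against 18.7, 1.02 and 0.634. Cd14 was at most 0.0892 FPKM. Erythroid markers ranged widely within both groups, at 259.7, 53.1 and 906 and 515, 176 and 81.7 FPKM in sum. The haemoglobin gene Hba-a1 was at 110.0, 19.3 and 450.1 FPKM in the controls and 61.2, 21.7 and 23 in the rEC libraries, its near-identical copy Hba-a2, with which it can share reads, at 69.9, 11.7 and 205 against 310.1, 82.7 and 36.3, and Hbb-bs at 57.8, 0.00314 and 202 against 118, 46.4 and 0.00385. Car2 was at 13.6, 19.3 and 15.7 against 8.65, 18.2 and 18.2.

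Plasmacytoid dendritic markers summed to 1105, 885 and 891 and 722, 897 and 979 FPKM, nearly all from Ptprcap, Irf8, Bst2 and Tcf4, which B cells also express, and the defining gene Siglech was at 1.91, 1.82 and 1.76 against 0.447, 3.41 and 0.948. Conventional dendritic markers summed to 2.77, 2.72 and 3.11 and 18.4, 2.95 and 2.65 FPKM, with Itgax at 5.21 in rEC 1. Platelet and megakaryocyte markers summed to 13.6, 10.1 and 14.8 and 23.9, 13.5 and 15.8 FPKM, with Pf4 at 1.6, 0.962 and 1.88 against 1.56, 0.913 and 1.41 and Itgb3 at 7.54, 6.57 and 8.6 against 16.8, 7.46 and 10.3. Eosinophil, basophil and mast cell markers summed to 1.32, 1.74 and 1.35 and 6.26, 2 and 1.52 FPKM. The part of these cells in the gene differences was not tested, apart from the comparisons without rEC 1.

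Defining endothelial genes were near 0 in rEC and native B cells alike. The endothelial list summed to 71.8, 89.3 and 73.9 FPKM in the controls and 53.7, 90.7 and 84.5 in the rEC libraries, most of it Pecam1, which lymphocytes also make, at 71.3, 88 and 73.1 against 51.4, 89.7 and 83.6. The cadherin Cdh5, a defining endothelial gene, was at 0.163, 0.496 and 0.161 against 0.09, 0.366 and 0.198 FPKM, Eng at 0.0398, 0.0474 and 0.188 against 1.4, 0.0536 and 0.101 and Plvap at 0.121, 0.53 and 0.144 against 0.353, 0.263 and 0.161. Over the 16 tested endothelial genes the median was 0.00030 with rEC 1 and 0.00020 without, and 3 of the 20 listed were at 0 in all 6 libraries. Stem cell genes summed to 322, 195 and 169 and 179, 185 and 149 FPKM, led by Ly6a, which is also an interferon response gene, and by Slamf1 at 8.33, 11.5 and 11.5 against 7.93, 12.6 and 16.6. Mllt3 was at 1.89, 3.4 and 3.44 against 8.48, 3.26 and 2.96 and Ctnnal1 at 1.93, 2.26 and 1.91 against 0.953, 1.91 and 1.75.

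None of the 4 conversion factors passed the test, and with all 3 rEC libraries each overlapped between the groups. Without rEC 1, Spi1 and Runx1 lay above every control in both libraries, as did 10.7% of all genes tested. Spi1, which B cells use at moderate levels, was at 98.3, 82.5 and 91.6 FPKM in the controls and 27.2, 107 and 104 in rEC 1, 2 and 3 (difference without rEC 1 0.22 ± 0.45). Runx1 was at 16.6, 21.7 and 18.3 against 12.8, 24 and 21.9 FPKM and Gfi1 at 0.497, 1.11 and 0.98 against 10.6, 1.66 and 1.11, its high value being in rEC 1. Fosb was at 37.4, 4.4 and 3.23 against 2.98, 12 and 2.61 FPKM, highest in control 1 like Fos. The values cannot tell transcripts of the native genes from those of an introduced copy.

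The last comparison set the B cell origin difference against the mean origin difference of myeloid, CD4 and CD8 T cells, none of which shares its controls. Here 0 of 14083 genes (0%) passed in limma, with 352 at an unadjusted p under 0.05, and without rEC 1 again 0, with 257. The smallest p-values with all libraries were those of Ace, Trim25 and Lilra5. Trim25 differed by -1.04 in B cells and by 0.11 on average in the other cells, a gap of -1.15 (limma adjusted p 0.114). For Ace and Lilra5 the gap lay in the other cells, since both were near 0 in B cells (0, 0 and 0.00925 FPKM for Ace in the controls). Some genes named from the weighted fit had origin differences of like size elsewhere, in a mean where 59 of 14083 genes passed in limma. Scand1 averaged 1.58 in the other blood cells (limma adjusted p 0.014), Hnrnpa0 0.74 (limma adjusted p 0.00828) and Taf10 0.79 (limma adjusted p 0.0257). In B cells without weights they differed by 1.52, 0.79 and 0.96. The same values are not given here for the other genes named from that fit.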

How the data were processed

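The authors deposited 1 table of FPKM for 23060 gene symbols in 30 libraries. Per the labels' protocols, cells were sorted by flow cytometry and RNA was made into non-stranded poly-A TruSeq libraries read as 51 bp paired ends. Per the submitters' processing notes the tools included Trimmomatic 0.36, TopHat2 2.1.0 and Cufflinks 2.2.1 with mm10, and any normalisation between libraries is not given in the sources used here. FPKM carry no counts, so no counting interval is given. The test was run on the 14083 genes that reached 1 FPKM in 2 or more libraries. Log2(FPKM + 1) was fitted with limma 3.58.1 (R 4.3.3, intensity trend, two-sided, Benjamini-Hochberg adjustment over all genes tested, threshold 0.05) with 1 mean for each of 11 groups of 29 libraries, with and without rEC 1, leaving 18 and 17 residual degrees of freedom. Since nothing says that libraries came from separate animals, p-values measure only the spread between libraries. The model was also run on simulated data in which no library was made like rEC 1, and the outcome is not reported here. The members and the 28 gene lists were chosen with earlier results of these data known. The rule names the 3 genes with the smallest p where none passes, gene models without a name left out, up to 4 of the most abundant members of each list, the FGRS factors, Ptprc and the identity genes. Positions are GENCODE genes on mm10, matched by symbol. The alternatives were another pseudocount, other filters, quantile normalisation, array weights, B cell libraries alone and leaving out each library. A few genes meeting the rule have been left out of the text.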

Additional observations from a re-analysis of the deposited data

Results flagged for a closer look

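The library titled B220+ of clone 47G1, annotated as wild type and placed in no group, held more signal of 2 other blood lineages than the control B cell libraries. Its erythroid markers summed to 1927 FPKM, against 259.7, 53.1 and 906 FPKM in the controls. Its neutrophil markers summed to 155 FPKM, against 21.3, 20.0 and 43.9 FPKM, with S100a8 at 60.4 and S100a9 at 56.6 FPKM. No T cell signal of the size seen in rEC 1 appeared there, with Cd3e listed at 0 FPKM.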

How the results depend on the processing

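With all 3 rEC libraries, 0 genes passed, and also 0 with a pseudocount of 0.1 or a filter of 5 FPKM. The count was 4 with no filter, 1 (Trim25) with quantile normalisation, 151 with array weights and 1 (Gm38670) in B cells alone, and 0 to 5 when 1 B cell library was left out, with 4 without rEC 2 (Angptl1, Il24, Sema5a and Xlr4a) and 5 without rEC 3 (Acss2, Emb, Enpp4, Lamp3 and Trim25). Without rEC 1 it was 0, and 7 with no filter, 135 with array weights, 1 in B cells alone, and 0 to 1 when another library was also left out, the 1 being Emb without rEC 3, where rEC 2 stands alone and is assumed to vary like the other groups. In 2 settings chosen after seeing the data, blood libraries alone gave 8 and 4 genes, of which Trim25 was in both, and leaving out the LKS-SLAM rEC library 2 gave 1 (Trim25) and 0. The difference between cell types stayed at 0 genes in its 4 other settings. No paired analysis was possible because the titles of the rEC B cell libraries carry no replicate numbers. Of 516 and 479 values of single genes recomputed in other settings, 48 and 34 changed sign, none of them in a call, and 16 and 11 newly passed. List medians changed sign in 45 of 392 and 48 of 364. The causes were not tested. FPKM under 1 rest on few fragments, and 3 libraries a group, of which 1 held T cell transcripts, limit what could pass.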

Other observations

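The library of clone 47G1 placed in no group had B cell identity genes at a summed 12599.9 FPKM. Pearson's r over the genes tested was 0.987 to 0.988 with the 3 controls, 0.929 with rEC 1, and 0.991 with each of rEC 2 and rEC 3. Trim25 was at 51.9 FPKM, Chst10 at 5.99, Xlr4a at 11.4, Klf2 at 889 and Scand1 at 235 FPKM in it, and Gm38670 was listed at 0. These genes were named above for their differences between rEC and control libraries, and others so named are not given for this library.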
